A study of Homo sapiens with 27 samples.

Results

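The 46 genes described here encode the enzymes and carriers of the urea cycle and of amino acid breakdown. They were chosen by symbol, each is listed once, and they are 46 of the 58735 genes with a value in every library. RNA was sequenced from 2 established lines of human liver cancer cells, HuH-7 and JHH-7, kept in DMEM with fetal bovine serum. The cells carried CRISPR guides, and the labels call the sgNTC cells, whose guide is a non-targeting control, WT. The knockout groups are sgKLB (KLB knockout), sgFGFR4 (FGFR4 knockout), sgFGFR3/4 (FGFR3 and FGFR4 knockout) and, in JHH-7 only, sgFGFR1/3/4 (FGFR1, FGFR3 and FGFR4 knockout). KLB is the co-receptor through which FGF19 acts on FGFR4, and the comparisons ask how loss of KLB or of these receptors alters gene expression. Each of the 9 groups holds 3 libraries that the labels call biological replicates. Whether a group is 1 clone or a pool of edited cells is not stated in the labels.

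The liver is the main site of amino acid breakdown. The urea cycle turns the ammonia that this frees into urea, starting in the mitochondrion with carbamoyl phosphate and ending in the cytosol with arginase. Each amino acid has its own route, and several routes end in glutamate, which glutamate dehydrogenase and glutamine synthetase interconvert with ammonia and glutamine. Many of these genes are used as marks of mature hepatocyte function.

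Levels are in FPKM, a fragment count scaled for transcript length and library size, so they can be compared between genes. Changes are differences in mean log2(FPKM + 1), with the standard error (SE) and a p from limma adjusted over all genes tested by the Benjamini-Hochberg method. A gene is said to have risen or fallen where that p is under 0.05. Depth, estimated from the steps between low values, was 14.4 M to 27.8 M fragments per library. The targeted genes fell in every group labelled for them, by 0.75 (FGFR1 in JHH-7 sgFGFR1/3/4) to 1.44 (FGFR4 in HuH-7 sgFGFR4) on the log2 scale, so transcript remained from each. All 11 hepatocyte markers reached 1 FPKM in both lines. Markers of other cell types were mixed. KDR, CD3E and MS4A1 were listed at 0 in all control libraries, and PTPRC at no more than a mean of 0.08 FPKM in either control group. LYZ, CD68, LUM and PECAM1 passed 1 FPKM in both control groups. In at least 1 library of the line, 4 of 6 fibroblast markers reached 1 FPKM in HuH-7 and 3 of 6 in JHH-7. In each line 1 of 4 endothelial and 2 of 5 immune markers did so. Fibroblast markers summed to 206.2 to 249.22 FPKM in HuH-7 controls and 5.46 to 6.39 FPKM in JHH-7 controls. In bulk RNA of this kind, fewer cells that express a gene and less RNA per cell cannot be told apart.

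In the JHH-7 control libraries 24 members had a mean of at least 10 FPKM, 13 lay between 1 and 10 FPKM, and 9 lay under 1 FPKM. In the HuH-7 controls these counts were 19, 12 and 15. A member was tested in a line where at least 3 of its libraries reached 1 FPKM, which left 36 members in HuH-7, 38 in JHH-7, 33 in both and 41 in at least 1 line. OTC, KMO, UROC1, SDS and GNMT were below this limit in both lines. OTC encodes ornithine transcarbamylase, which makes citrulline, so the cycle's second enzyme was barely detected at RNA level in either line. AGXT2 in JHH-7 passed through its knockout libraries alone, since no control library reached 1 FPKM, so a difference there was built into its selection. In HuH-7, 2 tested members likewise had no control library at 1 FPKM.

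The lines differed before any knockout. JHH-7 controls were higher than HuH-7 controls for 25 of 41 members and lower for 10, where 64% of all 16731 genes tested were called, 35% higher and 28.9% lower. Of the 35 called members, CPS1, AGXT, HPD, FTCD and PRODH2 were below the limit in HuH-7 and GLS2, BHMT and CDO1 in JHH-7. These 8 entered through the line where they are high, so a difference was built into their selection. With the control libraries alone in the fit and the limit, 25 of 37 were higher and 6 lower. The share of all genes called in that fit is not given here, so this split describes the members alone. In the fit over all libraries, the median member difference was 0.55 on the log2 scale, against 0.09 over all genes tested. The 8 urea cycle members tested were called higher in JHH-7, and CPS1 is among those that entered through JHH-7 alone. CTH, cystathionine gamma-lyase, which makes cysteine, was listed at 91.64, 88.59 and 97.33 FPKM in JHH-7 controls and at 6.26, 6.51 and 5.69 FPKM in HuH-7 controls. TDO2, the first enzyme of tryptophan breakdown, stood at 69.85, 41.53 and 64.35 FPKM in JHH-7 and at 2.72, 2.78 and 2.27 FPKM in HuH-7. The groups did not overlap for either gene, and the log2 differences were 3.71 (SE 0.13) and 4.02 (SE 0.17).

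AGXT and PRODH2 followed in size. AGXT, which detoxifies glyoxylate in the peroxisome, stood at 9.05, 14.24 and 10.56 FPKM in JHH-7 controls, and was listed at 0 in 2 of the 3 HuH-7 controls and at 0.08 FPKM in the other. PRODH2, which breaks down hydroxyproline, stood at 11.77, 11.44 and 9.14 FPKM in JHH-7 controls and at 0.28 FPKM or less in HuH-7. MAT1A, the liver form of methionine adenosyltransferase, was higher in JHH-7 by 2.44 (SE 0.16), and NAGS, which makes the activator of CPS1, by 2.10 (SE 0.10). In the other direction, BHMT2, which returns a methyl group to homocysteine, was lower in JHH-7 (-1.71, SE 0.15), as was GLDC, the decarboxylase of the glycine cleavage system (-1.17, SE 0.16). GLS2, the liver-type glutaminase, was also lower (-0.91, SE 0.31), but its adjusted p of 0.014 rose to as much as 0.0648 when 1 library was left out, and the call was lost without either of replicates 1 and 2 of the HuH-7 controls or replicates 1 and 3 of the JHH-7 controls. BHMT, a close relative of BHMT2, differed by -0.88 (SE 0.28), a call lost without replicate 3 of the HuH-7 controls (adjusted p = 0.079). AMT, the aminomethyltransferase of the glycine cleavage system, differed by -0.87 (SE 0.10), and AMDHD1, an enzyme of histidine breakdown, by -0.85 (SE 0.23).

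Loss of KLB in JHH-7 changed most of the members, in both directions. Of 38 tested, 19 rose and 8 fell, where 31.9% of all 14987 genes tested were called, 15.5% higher and 16.4% lower. The median member change was 0.47, against -0.02 over all genes tested. The rises included CPS1, FTCD, AGXT, GLDC and GLUD1. The falls were CTH, ARG2, ASS1, TAT, CBS, NAGS, BCKDHA and AHCY. Hepatocyte markers moved with these rises: 9 of 11 rose, and their summed level was 35096.79 to 38168.4 FPKM in the sgKLB libraries against 19676.81 to 20911.08 FPKM in the controls. Of 4 tested fetal liver and progenitor markers, 3 rose and 1 fell, and the summed level of that list was 4970.01 to 5536.68 FPKM against 3125.69 to 3660.94 FPKM. Mitochondrially encoded genes held 11.956% to 13.599% of the summed FPKM in sgKLB and 9.488% to 10.358% in the controls. The 50 highest genes held 27.5% to 29.2% and 25.6% to 26.7%. The part of these differences in the members' changes was not tested.

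Loss of FGFR1, FGFR3 and FGFR4 together in JHH-7 changed nearly as many members, but more of them fell. Of 38 tested, 9 rose and 15 fell, where 39.8% of all genes tested were called, 20.8% higher and 19% lower, and the median member change was -0.08 against 0.03. Across genes, the change in these libraries went with GC content (Spearman's rho = -0.43 over 14977 genes), unlike that in sgKLB (0.049). With a correction for length and GC content, chosen after seeing the data, 9 members rose and 13 fell. These counts describe the members alone, since the share of all genes called in that fit is not given here. All 10 cell cycle markers rose in sgFGFR1/3/4, from a summed 723.14 to 866.02 FPKM in the controls to 1371.65 to 1444.54 FPKM. In sgKLB their sum was 1011.85 to 1064.59 FPKM. In sgFGFR1/3/4, 6 of 11 hepatocyte markers rose and 3 fell, with sums of 22654.71 to 24422.27 FPKM. Of the 4 fetal liver and progenitor markers tested, 3 rose and 1 fell there, with sums of 5018.65 to 5265.48 FPKM. Their part in the members' changes was not tested.

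The single and double receptor knockouts of JHH-7 changed few members. In sgFGFR4, GLUD1 rose and ASS1, ARG2, NAGS and CBS fell, 5 of 38 where 4.25% of all genes tested were called, 2.42% higher and 1.83% lower. In sgFGFR3/4, CPS1, GLUD1, GLUL and HGD rose and ARG2 fell, again 5 of 38, where 3.53% of all genes tested were called, 2.24% higher and 1.29% lower. The median member change was 0.06 in sgFGFR4 and 0.19 in sgFGFR3/4. The CBS call in sgFGFR4 (adjusted p = 0.047) was lost without any 1 of the 3 controls or replicates 1 or 2 of sgFGFR4 (up to 0.211). In sgFGFR3/4, that of GLUL (0.0246) was lost without any 1 of the 3 controls or replicates 1 or 3 of sgFGFR3/4 (up to 0.0842), and that of HGD (0.02) without replicates 1 or 2 of the controls or replicates 1 or 3 of sgFGFR3/4 (up to 0.0691). All 5 calls of sgFGFR4 were lost when that comparison was fitted with its own 6 libraries alone, and 4 of the 5 of sgFGFR3/4 were lost there (all but ARG2). Over the 4 knockouts, 33 of the 38 members were called in at least 1. In sgFGFR1/3/4, 39.8% of all genes tested were called, and in sgKLB 31.9%. The share of all genes called in at least 1 of the 4 was not computed, so 33 of 38 cannot be compared with it. The comparisons of 1 line share their controls, so the values of each are given side by side.

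**Figure D1:**
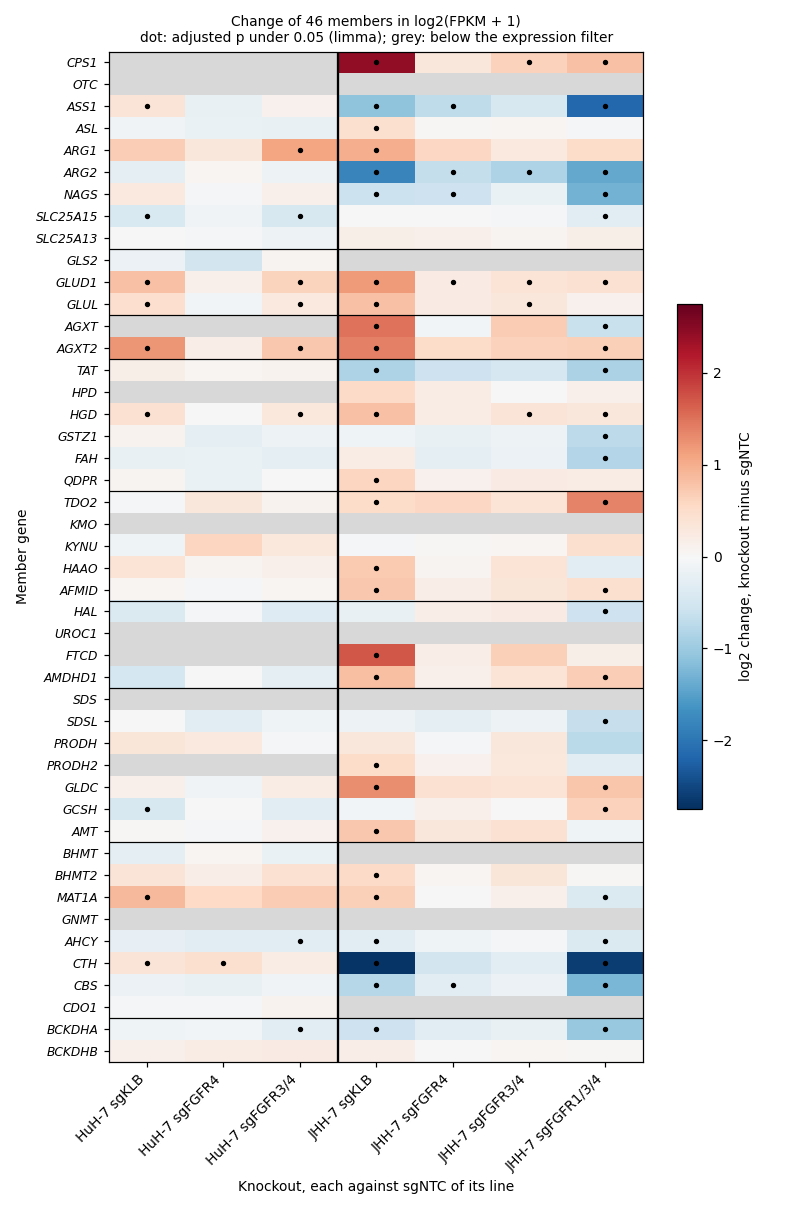
Change of each member in each knockout against sgNTC of its line, in log2(FPKM + 1), with red for higher, blue for lower, a dot for an adjusted p under 0.05 and grey for members below the expression limit. The JHH-7 sgKLB and sgFGFR1/3/4 columns hold 27 and 24 dots, and the other 5 columns hold 1 to 9.

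Promoters of the members with the largest changes in JHH-7 sgKLB are shown here so that the genes that fell (CTH, ARG2) can be set beside those that rose (FTCD, GLDC). Only genes with 1 start in RefSeq and at least 100 bases before the gene's first annotated base were eligible, which leaves out CPS1, AGXT and AGXT2. The letters are from RefSeq (GRCh38.p14), run 5′ to 3′ on the gene's strand, and stop at the RefSeq start or, where GENCODE 29 begins the gene earlier (CTH, ARG2 and GLDC), before that first base. Capitals mark matches on either strand to the TATA box TATAAA, the CCAAT box CCAAT, the cyclic AMP response element TGACGTCA, the C/EBP-ATF element TGATGNAA, the C/EBP palindrome TTGCNNAA, the HNF4 site CAAAGTCCA or the E-box CACGTG. The bases not shown also hold matches: CCAAT 54 bases before the start of GLDC, and CCAAT 76 and TGACGTCA 64 bases before that of ARG2. The stretches are chr1:70411018-70411217 (plus strand) for CTH, chr14:67619670-67619797 (plus strand) for ARG2, chr21:46155580-46155829 (minus strand) for FTCD and chr9:6645784-6645979 (minus strand) for GLDC.
CTH: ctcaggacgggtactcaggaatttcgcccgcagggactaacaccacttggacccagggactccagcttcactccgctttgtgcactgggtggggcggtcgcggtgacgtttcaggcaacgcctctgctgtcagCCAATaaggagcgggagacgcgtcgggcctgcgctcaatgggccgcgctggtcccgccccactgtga
ARG2: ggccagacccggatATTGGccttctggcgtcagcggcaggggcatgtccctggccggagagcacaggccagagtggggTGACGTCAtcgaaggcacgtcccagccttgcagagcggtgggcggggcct
FTCD: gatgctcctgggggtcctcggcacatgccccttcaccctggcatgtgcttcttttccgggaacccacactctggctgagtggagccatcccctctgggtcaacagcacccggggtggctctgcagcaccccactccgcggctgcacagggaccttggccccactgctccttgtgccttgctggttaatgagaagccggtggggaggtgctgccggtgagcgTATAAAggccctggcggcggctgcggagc
GLDC: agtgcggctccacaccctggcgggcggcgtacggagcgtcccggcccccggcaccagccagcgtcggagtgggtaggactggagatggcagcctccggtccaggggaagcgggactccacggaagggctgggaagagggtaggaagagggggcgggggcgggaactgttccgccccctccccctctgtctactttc

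The motifs were counted in the 250 bases before the RefSeq start of the 22114 genes with 1 listed start, 35 of them members. The CCAAT box was in 33.4% of all these promoters and in 18 of 35 members, and the TATA box in 11.8% and in 8 members. TGACGTCA was in 1.82% of all promoters and in ARG2 alone among the members, which has it 172 and 64 bases before its start. CAAAGTCCA was in 0.289% of all promoters and in 2 members, AGXT2 and HAAO. Both rose in JHH-7 sgKLB, where 16 of the 35 members rose and 4 fell, and AGXT2 passed the limit there through its knockout libraries alone. TTGCNNAA was in 9.37% of all and in HAL and KYNU, and CACGTG in 6.34% of all and in SLC25A13. TGATGNAA (3.35% of all) was in none of the 35 members. Both strands were read, and each motif was counted by itself, so matches to different motifs may overlap. They describe letters in this window and show no binding.

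Within the urea cycle, 3 of 8 tested members rose and 3 fell in JHH-7 sgKLB, where 31.9% of all genes tested were called. In sgFGFR1/3/4, 1 rose and 4 fell, where 39.8% were called. Counts per route, here and below, rest on few genes and only describe the calls. CPS1 (chr2:210477682-210679107 in GENCODE 29, GRCh38), which makes carbamoyl phosphate in the cycle's first and rate-setting step, stood at 1.96, 1.75 and 1.54 FPKM in the JHH-7 controls. It reached 15.53, 13.79 and 12.75 FPKM in sgKLB and 4.51, 3.24 and 3.64 FPKM in sgFGFR1/3/4. Every sgKLB library lay above all other JHH-7 libraries, and those of sgFGFR1/3/4 lay between them and the controls. CPS1 rose by 2.45 (SE 0.13, adjusted p = 4.75e-09) in sgKLB, an 8.01-fold difference of mean FPKM, and by 0.80 (SE 0.13) in sgFGFR1/3/4. In sgFGFR4 it was at 2.52, 2.45 and 2.32 FPKM, which did not pass the test, and in sgFGFR3/4 at 3.33, 3.02 and 3.37 FPKM, a rise of 0.63 whose adjusted p of 0.0154 reached 0.0643 without replicate 3 of the controls or of sgFGFR3/4. CPS1 was below the limit in HuH-7, with 0.66, 0.56 and 0.44 FPKM in the controls.

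NAGS, whose product N-acetylglutamate activates CPS1, moved the other way. It stood at 29.71, 32.02 and 28.37 FPKM in the JHH-7 controls, at 20.22, 20.43 and 17.92 FPKM in sgKLB, and at 12.48, 11.23 and 11.22 FPKM in sgFGFR1/3/4. Neither knockout overlapped the controls, and the changes were -0.60 and -1.30 (SE 0.10 each). In sgFGFR4 it was at 18.92, 19.06 and 22.32 FPKM, a change of -0.56 (SE 0.10).

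ASS1 (chr9:130444929-130501274), which joins citrulline and aspartate, stood at 125.51, 169.21 and 128.54 FPKM in the JHH-7 controls. It was at 59.69, 72.55 and 62.12 FPKM in sgKLB, and at 33.65, 27.14 and 31.33 FPKM in sgFGFR1/3/4. The 3 groups did not overlap. ASS1 changed by -1.10 (SE 0.15) in sgKLB and by -2.16 (SE 0.15, adjusted p = 1.24e-07) in sgFGFR1/3/4, where its mean was 4.59-fold lower than in the controls. In sgFGFR4 it was at 67.16, 86.22 and 106.44 FPKM, a change of -0.71 that was lost without replicate 2 of the controls or replicates 1 or 2 of sgFGFR4 (adjusted p up to 0.0785). ASS1 has processed pseudogenes, among which short reads may have been divided. ASL, which splits argininosuccinate into arginine and fumarate, rose in sgKLB, from 90.9, 99.54 and 84.78 FPKM to 122.72, 120.27 and 130.28 FPKM (0.44, SE 0.08).

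The 2 arginases, which release urea from arginine, moved in opposite directions in JHH-7 sgKLB. ARG2, the mitochondrial form, stood at 29.35, 32.27 and 27.16 FPKM in the controls, at 6.58, 8.31 and 8.26 FPKM in sgKLB and at 10.87, 10.69 and 10.18 FPKM in sgFGFR1/3/4. In sgFGFR4 it was at 14.61, 20.01 and 20.94 FPKM, and in sgFGFR3/4 at 16.55, 14.23 and 17.36 FPKM. No knockout library reached the lowest control. The changes were -1.81 (SE 0.13) in sgKLB, -1.40 in sgFGFR1/3/4, -0.84 in sgFGFR3/4 and -0.66 in sgFGFR4, and all 4 passed the test, although that of sgFGFR4 was lost without replicate 2 of the controls or replicate 1 of sgFGFR4 (adjusted p up to 0.0598). ARG1, the cytosolic form that serves the liver cycle, stood at 6.58, 3.81 and 4.95 FPKM in the controls and at 10.97, 10.67 and 11.23 FPKM in sgKLB. It rose by 0.99 (SE 0.28), a call lost without replicate 2 of the controls (adjusted p = 0.0571). The ornithine carrier SLC25A15 fell in sgFGFR1/3/4 (-0.31, SE 0.09), and the aspartate-glutamate carrier SLC25A13 passed the test in no JHH-7 knockout, with group means from 55.01 to 61.39 FPKM.

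**Figure D2:**
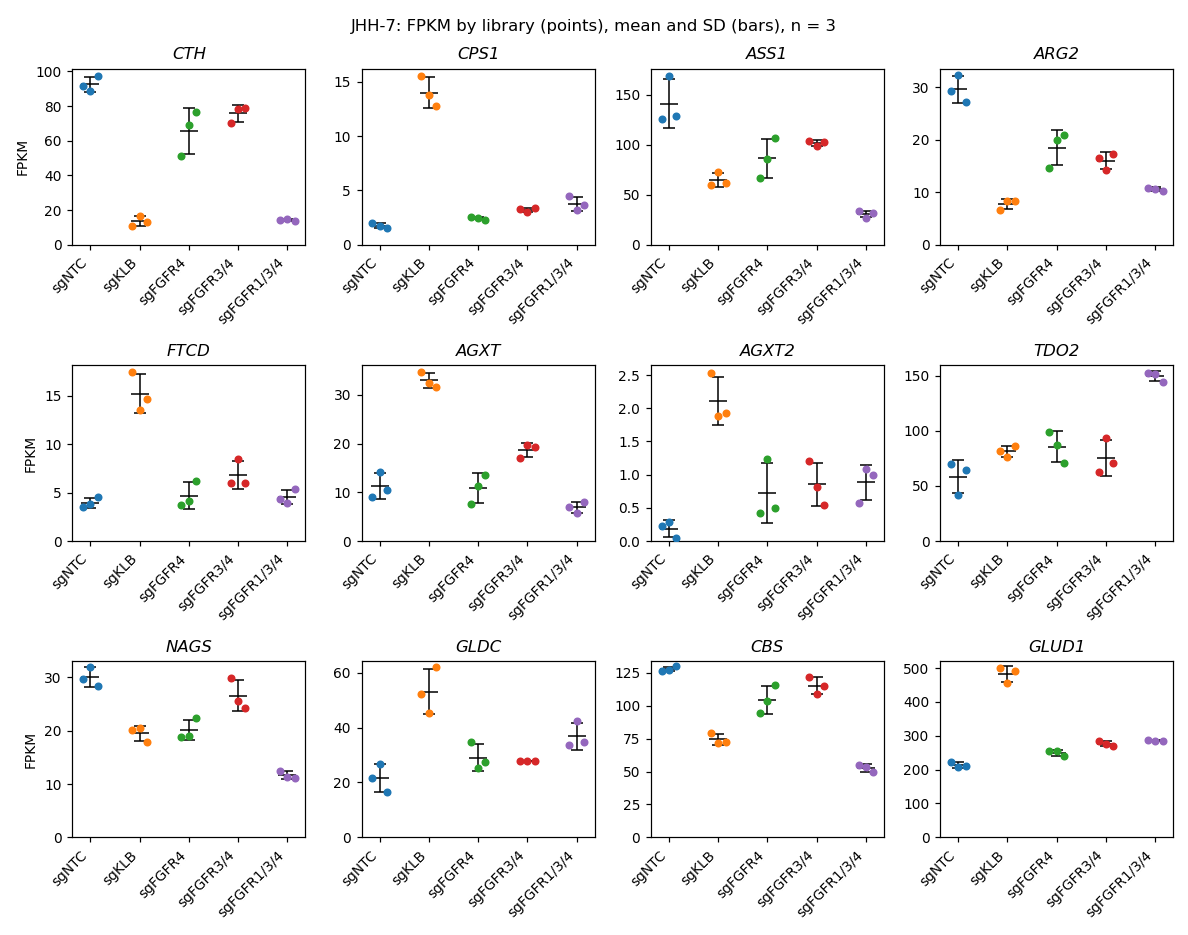
FPKM of 12 members in the 15 JHH-7 libraries, with 1 point per library and bars for the mean and SD of each group (n = 3, linear axes from 0). CPS1, FTCD and AGXT are highest in sgKLB, TDO2 is highest in sgFGFR1/3/4, and CTH, ASS1, ARG2, NAGS and CBS lie below the controls in both groups.

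Both tested genes of glutamate and glutamine handling rose in JHH-7 sgKLB, where 31.9% of all genes tested were called, 15.5% higher. GLUD1, glutamate dehydrogenase, was at 223.07, 208.93 and 210.04 FPKM in the controls and at 499.47, 457.03 and 492.4 FPKM in sgKLB. It was at 286.68, 285.54 and 285.82 FPKM in sgFGFR1/3/4, 283.62, 276.36 and 270.52 FPKM in sgFGFR3/4, and 254.94, 254.6 and 240.19 FPKM in sgFGFR4. Every knockout library exceeded every control, and sgKLB exceeded all others. GLUD1 rose by 1.17 (SE 0.05, adjusted p = 7.97e-10) in sgKLB, by 0.42 in sgFGFR1/3/4, by 0.37 in sgFGFR3/4 and by 0.22 in sgFGFR4. The last of these was lost without any 1 of replicates 2 and 3 of the controls and 1 and 2 of sgFGFR4 (adjusted p up to 0.11). GLUD1 has a near-identical copy, GLUD2, so reads could be divided between them. GLUD2 too is listed by itself and passed the limit in JHH-7, but its values are not given here. GLUL, glutamine synthetase, rose by 0.80 (SE 0.07) in sgKLB, from 295.37, 295.99 and 287.57 FPKM to 545.43, 515.07 and 472.4 FPKM, and was at 308.57, 317.4 and 330.43 FPKM in sgFGFR1/3/4, which did not pass the test.

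Of the members tested, AGXT, an aminotransferase that removes glyoxylate, had the largest difference between the 2 large JHH-7 knockouts. It stood at 9.05, 14.24 and 10.56 FPKM in the controls, at 34.7, 32.44 and 31.66 FPKM in sgKLB, and at 6.96, 5.8 and 7.99 FPKM in sgFGFR1/3/4. The sgKLB libraries lay above all controls and the sgFGFR1/3/4 libraries below all of them. The rise in sgKLB was 1.49 (SE 0.18), and the fall in sgFGFR1/3/4 was -0.62 (SE 0.18, adjusted p = 0.0148). That fall was lost without replicate 2 of the controls or of sgFGFR1/3/4 (adjusted p up to 0.0784), and with the length and GC correction (0.113). AGXT2, the mitochondrial enzyme, stood at 0.23, 0.29 and 0.04 FPKM in the controls and at 2.53, 1.88 and 1.93 FPKM in sgKLB (1.39, SE 0.22). It was at 0.58, 1.08 and 0.99 FPKM in sgFGFR1/3/4, a change of 0.66 that was lost without replicate 3 of the controls or replicates 2 or 3 of sgFGFR1/3/4 (adjusted p up to 0.0961). The difference between sgKLB and sgFGFR1/3/4 was 0.73 (adjusted p = 0.0199), and this call was lost without replicate 1 of either group (up to 0.0832) and with a pseudocount of 0.1 (0.0809).

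Tyrosine is broken down by TAT, HPD, HGD, GSTZ1 and FAH in this order. Of the 6 tyrosine members, 2 rose and 1 fell in JHH-7 sgKLB, where 31.9% of all genes tested were called. In sgFGFR1/3/4, 1 rose and 3 fell, where 39.8% were called. TAT, the entry enzyme, was low and fell in both large JHH-7 knockouts, from 2.8, 2.41 and 2.4 FPKM in the controls to 1.02, 1.01 and 0.87 FPKM in sgKLB (-0.85, SE 0.17) and 1.19, 0.79 and 0.8 FPKM in sgFGFR1/3/4 (-0.88, SE 0.17). HGD, which opens the ring of homogentisate, rose in sgKLB, from 59.91, 54.41 and 62.92 FPKM to 106.71, 100.12 and 106.88 FPKM (0.82, SE 0.07), and less in sgFGFR1/3/4 (0.32, SE 0.07). The later enzymes GSTZ1 (-0.72, SE 0.14) and FAH (-0.81, SE 0.12) fell in sgFGFR1/3/4. In sgKLB, FAH was at 19.8, 22.82 and 17.78 FPKM beside 17.72, 18.47 and 15.58 FPKM in the controls, and did not pass. QDPR, which regenerates the cofactor tetrahydrobiopterin, rose in sgKLB (0.60, SE 0.13).

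Of 4 tested tryptophan members, 3 rose in JHH-7 sgKLB, 2 rose in sgFGFR1/3/4 and none fell. The shares of all genes tested that were called in these groups were 31.9% and 39.8%. TDO2 was the tryptophan gene with the largest change, and it changed most in sgFGFR1/3/4. Against 69.85, 41.53 and 64.35 FPKM in the JHH-7 controls, it reached 153.03, 151.76 and 144.3 FPKM there, a rise of 1.37 (SE 0.18, adjusted p = 3.59e-05) with no overlap. In sgKLB it was at 82.07, 76.35 and 85.95 FPKM, a rise of 0.50 at an adjusted p of 0.0435, which was lost without replicate 2 of the controls or any 1 of the sgKLB libraries (adjusted p up to 0.192). AFMID, the formamidase of the next step, rose in both, by 0.73 (SE 0.13) and 0.43 (SE 0.13), the second of which was lost without replicate 1 of the controls or replicate 2 of sgFGFR1/3/4 (up to 0.0664). HAAO, which makes the precursor of quinolinate, rose in sgKLB from 30.05, 42.28 and 32.06 FPKM to 54.82, 63.35 and 53.43 FPKM (0.71, SE 0.13), and was at 25.96, 29.04 and 29.36 FPKM in sgFGFR1/3/4, which did not pass.

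In the histidine route, 2 of 3 tested members rose in sgKLB, where 31.9% of all genes tested were called. In sgFGFR1/3/4, 1 rose and 1 fell, where 39.8% were called. FTCD, which feeds the last one-carbon unit of histidine to folate, stood at 3.48, 3.79 and 4.53 FPKM in the JHH-7 controls and at 17.49, 13.49 and 14.71 FPKM in sgKLB. In sgFGFR1/3/4 it was at 4.37, 3.95 and 5.38 FPKM. The sgKLB libraries lay above all others of the line, whereas those of sgFGFR1/3/4 overlapped the controls. FTCD rose by 1.72 (SE 0.18, adjusted p = 4.99e-06) in sgKLB, a 3.87-fold difference of means. AMDHD1 rose in sgKLB (0.82, SE 0.23), from 3.62, 3.68 and 5.05 FPKM to 7.56, 5.09 and 12.81 FPKM, and the call was lost without replicate 3 of sgKLB (adjusted p = 0.0563). In sgFGFR1/3/4 it was at 6.66, 7.73 and 7.12 FPKM (0.68, adjusted p = 0.0276). That call was lost without replicates 1 or 2 of the controls or 2 or 3 of sgFGFR1/3/4 (up to 0.0856) and with no filter on low values (0.0715). HAL, the first enzyme of the route, fell in sgFGFR1/3/4 (-0.57, SE 0.15).

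Of 6 tested members of serine, proline and glycine breakdown, 3 rose in sgKLB, where 31.9% of all genes tested were called. In sgFGFR1/3/4, 2 rose and 1 fell, where 39.8% were called. The 3 proteins of the glycine cleavage system measured here gave different calls. GLDC stood at 21.6, 26.74 and 16.68 FPKM in the JHH-7 controls, at 52.15, 45.38 and 62.0 FPKM in sgKLB and at 33.5, 42.53 and 34.61 FPKM in sgFGFR1/3/4, and rose by 1.27 and 0.76 (SE 0.16 each). AMT passed the test in sgKLB and in no other JHH-7 knockout against the controls, rising from 7.71, 8.74 and 7.65 FPKM to 13.27, 15.11 and 14.16 FPKM (0.75, SE 0.12). GCSH, the lipoyl carrier of the system, rose in sgFGFR1/3/4, from 41.15, 36.14 and 38.9 FPKM to 59.84, 58.16 and 62.7 FPKM (0.63, SE 0.10), and was at 36.42, 33.1 and 40.58 FPKM in sgKLB, which overlapped the controls. GCSH has pseudogenes that could share its reads. PRODH2 rose in sgKLB by 0.50 (SE 0.14), a call lost without replicate 3 of the controls or replicate 1 of sgKLB (adjusted p up to 0.0678). SDSL, a serine dehydratase relative, fell in sgFGFR1/3/4 (-0.64, SE 0.13).

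The transsulfuration genes, which turn homocysteine into cysteine, held the largest fall. Of 5 tested members of methionine and cysteine breakdown, 2 rose and 3 fell in sgKLB, where 31.9% of all genes tested were called. In sgFGFR1/3/4, 4 fell, where 39.8% of all genes were called. CTH went from 91.64, 88.59 and 97.33 FPKM in the JHH-7 controls to 10.74, 16.55 and 13.36 FPKM in sgKLB and to 14.16, 15.02 and 13.47 FPKM in sgFGFR1/3/4. It was at 51.11, 68.99 and 76.7 FPKM in sgFGFR4 and at 70.41, 78.11 and 78.76 FPKM in sgFGFR3/4. The 2 large knockouts overlapped each other and lay below every other library. CTH changed by -2.70 (SE 0.14, adjusted p = 5.73e-09) in sgKLB, 6.83-fold lower by mean FPKM, and by -2.62 (SE 0.14, adjusted p = 1.91e-08) in sgFGFR1/3/4. The sgFGFR4 and sgFGFR3/4 groups did not pass. CBS, which precedes CTH, stood at 126.8, 127.49 and 130.0 FPKM in the controls, at 79.49, 71.41 and 72.64 FPKM in sgKLB and at 55.04, 53.68 and 49.35 FPKM in sgFGFR1/3/4, with changes of -0.78 and -1.27 (SE 0.08 each). CBS shares its sequence with the copy CBSL, so reads could be divided between them. CBSL is listed as a gene of its own and passed the limit in JHH-7, but its values are not given here.

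MAT1A, which makes S-adenosylmethionine, was the other member called in both directions. It stood at 10.27, 8.51 and 9.26 FPKM in the JHH-7 controls, at 15.01, 15.42 and 15.27 FPKM in sgKLB and at 7.51, 6.93 and 6.09 FPKM in sgFGFR1/3/4. It rose by 0.65 (SE 0.10) in sgKLB and changed by -0.40 (SE 0.10) in sgFGFR1/3/4, and the latter was lost with the length and GC correction (adjusted p = 0.0673). AHCY, which removes S-adenosylhomocysteine, fell in both, by -0.32 and -0.39 (SE 0.08 each). BHMT2 rose in sgKLB by 0.52 (SE 0.15), a call lost without replicate 2 of sgKLB (adjusted p = 0.0728). BCKDHA, a subunit of the branched-chain ketoacid dehydrogenase, fell from 52.8, 63.89 and 56.39 FPKM to 39.55, 40.86 and 34.86 FPKM in sgKLB (-0.57, SE 0.11) and 27.15, 27.43 and 27.78 FPKM in sgFGFR1/3/4 (-1.04, SE 0.11). Its partner BCKDHB passed the test in no knockout of either line.

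Compared directly, the 2 large JHH-7 knockouts differed in 27 of 38 members. In sgKLB, 24 were higher than in sgFGFR1/3/4 and 3 were lower, where 35.7% of all genes tested were called, 15.9% higher and 19.7% lower, and the median member difference was 0.49 against -0.03. The 6 largest rises were AGXT (2.11, SE 0.18), CPS1 (1.65, SE 0.13), FTCD (1.54, SE 0.18), PRODH (1.06, SE 0.29), MAT1A (1.05, SE 0.10) and ASS1 (1.05, SE 0.15). PRODH, proline dehydrogenase, was at 1.62, 3.87 and 3.48 FPKM in sgKLB and at 1.11, 1.03 and 0.48 FPKM in sgFGFR1/3/4, and its call was lost without replicate 2 of sgKLB or replicate 3 of sgFGFR1/3/4 (adjusted p up to 0.0552). The 3 lower in sgKLB were TDO2 (-0.87, SE 0.18), GCSH (-0.70, SE 0.10) and ARG2 (-0.42, SE 0.13), and that of ARG2 was lost without replicate 1 of sgKLB or replicates 1 or 2 of sgFGFR1/3/4 (adjusted p up to 0.103). CTH did not pass, with a difference whose 95% interval ran from -0.39 to 0.23. Differences between these 2 knockouts went with GC content across genes (Spearman's rho = 0.517). With the length and GC correction, 23 members were higher and 3 lower. For that fit too, the share of all genes called is not given here.

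Adding the FGFR1 guide to the FGFR3 and FGFR4 guides was examined by comparing sgFGFR1/3/4 with sgFGFR3/4. Of 38 members, 2 were higher (TDO2 and GCSH) and 18 lower, where 32.2% of all genes tested were called, 16.8% higher and 15.4% lower. The median member difference was -0.32, against 0.02 over all genes tested. The 6 largest falls were CTH (-2.33, SE 0.14), ASS1 (-1.71, SE 0.15), AGXT (-1.32, SE 0.18), NAGS (-1.12, SE 0.10), CBS (-1.12, SE 0.08) and PRODH (-1.06, SE 0.29). AGXT was at 16.94, 19.69 and 19.27 FPKM in sgFGFR3/4 and at 6.96, 5.8 and 7.99 FPKM in sgFGFR1/3/4, with no overlap. The PRODH call was lost without replicate 1 of sgFGFR3/4 or replicate 3 of sgFGFR1/3/4 (adjusted p up to 0.0574). Here too the differences went with GC content (Spearman's rho = -0.48), and with the correction 2 members were higher and 16 lower. This split is likewise given without the share of all genes called in that fit.

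**Figure D3:**
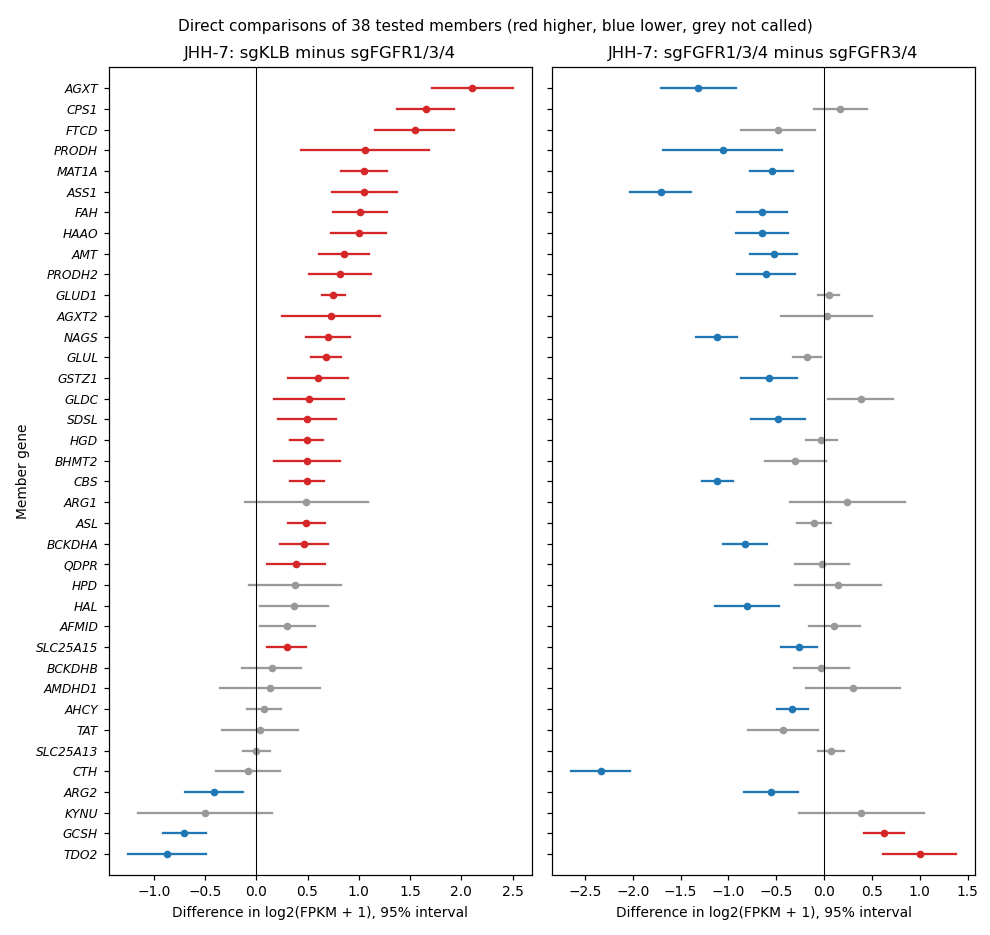
Differences between JHH-7 knockouts for the 38 tested members, in log2(FPKM + 1), with points for the estimate and lines for the 95% interval. On the left, 24 members are higher in sgKLB than in sgFGFR1/3/4 (red) and 3 lower (blue), and on the right 18 are lower in sgFGFR1/3/4 than in sgFGFR3/4.

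HuH-7 changed less. In sgKLB, 7 of 36 members rose and 2 fell, where 17.6% of all 14716 genes tested were called, 8.98% higher and 8.62% lower, and scaling to TPM made the members' split 9 and 1. The length and GC correction made it 8 and 3. In sgFGFR3/4, 5 rose and 3 fell, where 16.1% of all genes were called, 8.9% higher and 7.22% lower, and TPM scaling made it 7 and 1. It was 3 and 4 with the length and GC correction, and 3 and 3 without replicate 1 of the controls. In sgFGFR4, CTH alone passed, where 3.71% of all genes were called, 2.07% higher and 1.64% lower, and 8 members had an unadjusted p under 0.05, as did 3976 of the 14716 genes tested. With the length and GC correction the CTH call was lost (adjusted p = 0.197) and AHCY was lower (-0.27, adjusted p = 0.0339). TPM scaling also moved the share of higher genes among all those called, from 51.0% to 64.0% in sgKLB, from 55.2% to 77.8% in sgFGFR3/4 and from 55.7% to 78.3% in sgFGFR4. With the length and GC correction these shares were 44.9%, 38.3% and 25%. The median member change was 0.04 in sgKLB, 0.08 in sgFGFR3/4 (-0.09 with quantile normalization) and -0.03 in sgFGFR4 (0.05 with TPM scaling). The CTH call in sgFGFR4 (0.43, SE 0.11, adjusted p = 0.048) held without replicate 1 of the controls and was lost without any 1 of the other 5 libraries (up to 0.176). The sgFGFR4 changes went with GC content across genes (Spearman's rho = -0.502), as did those of sgFGFR3/4 (-0.31). Of 10 cell cycle markers, 10 fell in HuH-7 sgKLB and 5 in sgFGFR3/4, with sums of 496.47 to 505.18 FPKM in sgKLB and 643.51 to 666.12 FPKM in sgFGFR3/4 beside 853.8 to 902.03 FPKM in the controls. Of 11 hepatocyte markers, 8 rose in sgKLB, and 9 rose and 1 fell in sgFGFR3/4. Their sums were 10664.01 to 11185.31 FPKM in sgKLB and 9271.78 to 9614.24 FPKM in sgFGFR3/4 beside 7511.08 to 7778.16 FPKM. Their part in the members' changes was not tested.

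GLUD1 had the clearest change in HuH-7. It stood at 345.96, 370.23 and 358.43 FPKM in the controls, at 565.21, 666.02 and 660.51 FPKM in sgKLB, at 566.05, 567.04 and 520.76 FPKM in sgFGFR3/4, and at 410.34, 392.76 and 377.37 FPKM in sgFGFR4. All knockout libraries lay above the controls. GLUD1 rose by 0.81 (SE 0.07, adjusted p = 1.3e-05) in sgKLB and by 0.62 (SE 0.07) in sgFGFR3/4, and exceeded sgFGFR4 in sgFGFR3/4 by 0.49 (SE 0.07). GLUL rose in sgKLB from 236.29, 253.49 and 257.26 FPKM to 359.58, 340.43 and 336.96 FPKM (0.47, SE 0.06), and HGD from 67.7, 68.54 and 76.77 FPKM to 91.82, 97.5 and 96.54 FPKM (0.42, SE 0.09).

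AGXT2 stood at 0.51, 0.45 and 1.36 FPKM in the HuH-7 controls and at 2.65, 3.38 and 3.03 FPKM in sgKLB, and rose by 1.21 (SE 0.20). In sgFGFR3/4 it was at 2.16, 1.62 and 1.94 FPKM, a rise of 0.75 lost without replicates 1 or 2 of the controls or replicates 1 or 3 of sgFGFR3/4 (adjusted p up to 0.0952). ARG1 stood at 1.61, 2.13 and 1.27 FPKM in the controls and at 6.44, 4.31 and 3.4 FPKM in sgFGFR3/4, a rise of 1.08 (SE 0.23), and at 3.6, 2.69 and 3.43 FPKM in sgKLB, which did not pass (adjusted p = 0.0675). MAT1A stood at 0.98, 0.64 and 1.1 FPKM in the controls and at 2.71, 2.52 and 2.31 FPKM in sgKLB. Its rise of 0.89 (SE 0.22) was lost without replicate 2 of the controls or replicate 1 of sgKLB (adjusted p up to 0.0637). ASS1, which fell in JHH-7 sgKLB, rose in HuH-7 sgKLB from 33.1, 30.48 and 37.55 FPKM to 43.0, 41.93 and 45.37 FPKM (0.36, SE 0.09), a call lost without replicate 2 of the controls or replicate 3 of sgKLB (up to 0.0645). GCSH fell in sgKLB, from 27.61, 27.35 and 23.76 FPKM to 17.61, 20.36 and 19.13 FPKM (-0.44, SE 0.10).

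The other HuH-7 calls were small, and each was lost in at least 1 alternative fit. In sgKLB, CTH rose by 0.35 (adjusted p = 0.0379), which was lost without any 1 of the 3 controls or replicates 1 or 3 of sgKLB (up to 0.124). SLC25A15 changed there by -0.41 (0.0478), which was lost without any 1 of the 6 libraries (0.0526 to 0.147), and in sgFGFR3/4 by -0.44 (0.0396), which held only without replicate 1 of the controls (up to 0.139). Also in sgFGFR3/4, GLUL rose by 0.26 (0.0157), a call lost with only the groups compared in the fit and with the length and GC correction (up to 0.0558). HGD rose by 0.29 (0.0419), lost without replicates 1 or 2 of the controls or 1 or 3 of sgFGFR3/4 (up to 0.141). BCKDHA changed by -0.29 (0.044), lost without replicates 2 or 3 of the controls or 1 or 3 of sgFGFR3/4 (up to 0.147), and AHCY by -0.31 (0.0204), lost without replicate 3 of the controls or replicates 1 or 3 of sgFGFR3/4 (up to 0.0824).

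**Figure D4:**
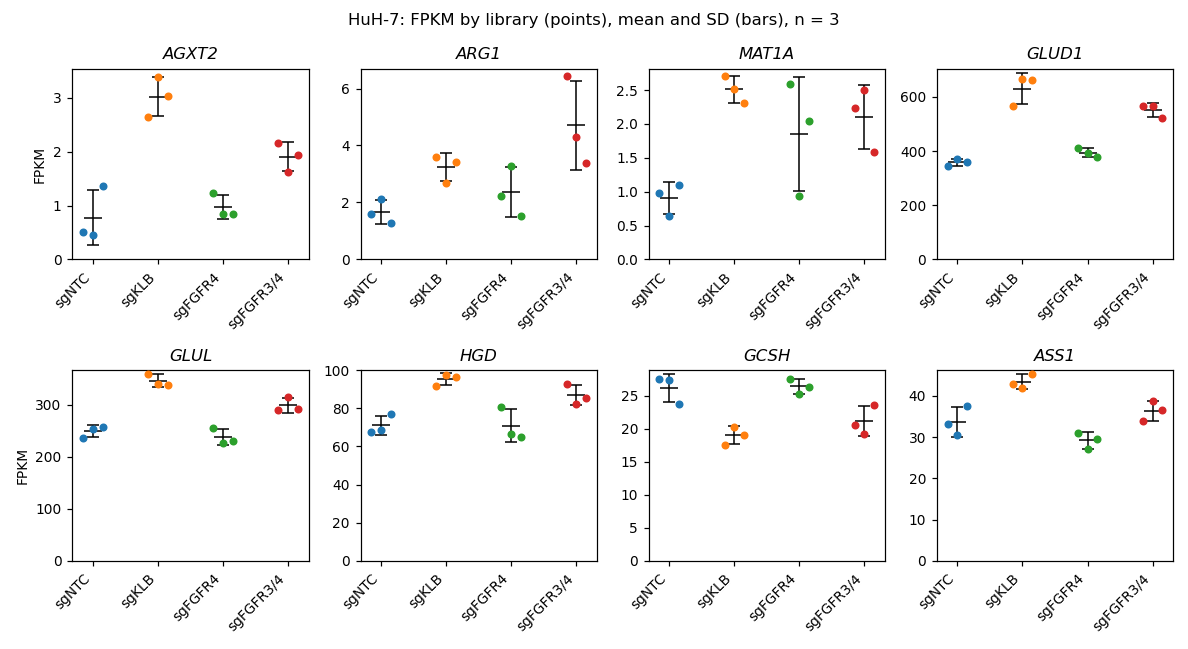
FPKM of 8 members in the 12 HuH-7 libraries, with 1 point per library and bars for the mean and SD of each group (n = 3, linear axes from 0). The means of AGXT2, MAT1A, GLUD1, GLUL, HGD and ASS1 are highest in sgKLB, that of ARG1 is highest in sgFGFR3/4, and that of GCSH is lowest in sgKLB.

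Between HuH-7 sgKLB and sgFGFR3/4 no member passed the test, where 0.55% of all genes did, 0.217% higher and 0.333% lower. By limma, 4 of the 36 members and 2564 of all 14716 genes had an unadjusted p under 0.05. Between HuH-7 sgFGFR3/4 and sgFGFR4, GLUD1 and GLUL passed, where 1.62% of all genes did, 1.02% higher and 0.598% lower. The GLUL difference of 0.33 (SE 0.06) was lost without replicates 2 or 3 of sgFGFR4 or replicates 1 or 2 of sgFGFR3/4 (adjusted p up to 0.103).

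Whether the effect of KLB loss differed between the lines was tested over all 27 libraries. The change in JHH-7 minus that in HuH-7 passed for 18 of 41 members, 11 higher and 7 lower, where 19.7% of all genes tested passed, 9.8% higher and 9.9% lower. CTH differed most (-3.05, SE 0.18): it fell in JHH-7 and was at 8.91, 7.51 and 7.99 FPKM in HuH-7 sgKLB beside 6.26, 6.51 and 5.69 FPKM. ARG2 (-1.58, SE 0.21) was at 7.81, 7.76 and 7.84 FPKM in HuH-7 sgKLB beside 7.29, 9.44 and 11.92 FPKM, which overlap. ASS1 (-1.46, SE 0.18), TAT (-1.02, SE 0.21), NAGS (-0.86, SE 0.14) and CBS (-0.61, SE 0.11) followed. TAT reached 1 FPKM in no HuH-7 control library, so a fall there could hardly be seen. Higher in JHH-7 were the effects on CPS1 (2.18, SE 0.29), FTCD (1.65, SE 0.31), AGXT (1.43, SE 0.23), AMDHD1 (1.29, SE 0.32), GLDC (1.13, SE 0.23) and AMT (0.71, SE 0.14). CPS1, FTCD and AGXT were under the limit in HuH-7, so a fall there could hardly be seen, nor, for AGXT, a rise by the same ratio. The calls of FTCD and AGXT were lost with a pseudocount of 0.1 (adjusted p = 0.104 and 0.0937). For sgFGFR3/4, ARG2 alone passed (-0.70, SE 0.21), where 7.21% of all genes did, 3.77% higher and 3.44% lower, and where TPM scaling moved the share of higher genes among those from 52.3% to 27.3%. Its adjusted p of 0.041 reached 0.092 when 1 library was left out, and the call was lost in 9 of 12 such fits, all but those without HuH-7 control replicate 3, HuH-7 sgFGFR3/4 replicate 2 or JHH-7 sgFGFR3/4 replicate 3.

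Of 53 further genes of amino acid breakdown, 52 were tested in JHH-7 and 51 in HuH-7. In JHH-7 sgKLB 17 rose and 6 fell, and in sgFGFR1/3/4 8 rose and 16 fell, with medians of 0.12 and -0.10. Of all genes tested, 15.5% rose and 16.4% fell in the former and 20.8% and 19% in the latter. OAT, which links ornithine to proline and glutamate, stood at 72.28, 58.49 and 79.5 FPKM in the JHH-7 controls, at 317.06, 260.09 and 303.25 FPKM in sgKLB and at 249.81, 253.14 and 257.53 FPKM in sgFGFR1/3/4. It rose by 2.06 (SE 0.12) in sgKLB. HOGA1, an enzyme of hydroxyproline breakdown, rose there by 2.19 (SE 0.21), DAO, D-amino acid oxidase, by 1.57 (SE 0.27) and GPT, cytosolic alanine aminotransferase, by 1.24 (SE 0.19). BCAT1, the cytosolic branched-chain aminotransferase, fell in sgKLB (-1.88, SE 0.16). GPT2, the mitochondrial alanine aminotransferase, fell in sgFGFR1/3/4 (-1.20, SE 0.12), as did DMGDH, dimethylglycine dehydrogenase (-1.14, SE 0.20), and ETHE1, which oxidises persulfide (-0.93, SE 0.13). In HuH-7 sgKLB 7 rose and 5 fell, where 8.98% of all genes tested rose and 8.62% fell. The largest rises over the HuH-7 knockouts were in sgFGFR3/4, of CSAD (1.28, SE 0.27), which makes hypotaurine, and ACADSB (1.23, SE 0.15), which acts on isoleucine. BCAT1 had the largest fall over them, in sgKLB (-0.71, SE 0.12).

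Of 18 transcriptional regulators of liver genes, 17 were tested in JHH-7. In sgFGFR1/3/4 2 rose and 8 fell, and in sgKLB 6 rose and 4 fell, beside the same shares of all genes (20.8% and 19%, and 15.5% and 16.4%). CEBPB stood at 201.83, 233.93 and 189.48 FPKM in the controls, at 52.86, 60.18 and 57.38 FPKM in sgFGFR1/3/4 and at 57.81, 76.27 and 63.54 FPKM in sgKLB, and fell in the first by 1.85 on the log2 scale (SE 0.12). KLF15 (-1.17, SE 0.12) and PPARA (-1.16, SE 0.17) fell in sgFGFR1/3/4, and NR0B2, a target of bile acid signalling, fell in sgKLB (-1.68, SE 0.11). CREB3L3 (0.98, SE 0.06), HNF4A (0.75, SE 0.07) and FOXA1 (0.71, SE 0.08) rose in JHH-7 sgKLB. In HuH-7 sgKLB, 4 of 15 tested regulators rose and 2 fell, beside 8.98% and 8.62% of all genes tested. CREB3L3 rose there as well (0.95, SE 0.07), and NR1H4 (-0.53, SE 0.10) and NR0B2 (-0.43, SE 0.09) fell. In HuH-7 sgFGFR3/4, 3 rose and 0 fell, beside 8.9% and 7.22% of all genes tested, and ONECUT1 was among the rises (0.80, SE 0.10). These lists were chosen with results of these data known, so their counts are no independent support.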

How the data were processed

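RNA sequencing of 27 libraries was analysed from the 2 tables that the authors deposited, 1 per cell line, which hold FPKM for 58735 genes. Per the submitters' processing notes, the authors used RSEM and GRCh38 (hg38). No aligner, tool version or annotation release is named in the sources used here, although all 58735 gene IDs are in GENCODE 29. The unit was read from the deposited values: the FPKM columns sum to 723416 to 822978, not to 1000000, and are not whole numbers. The tables hold no read counts, so no count test was run. Depth was estimated from the steps between low FPKM values of genes with 1 transcript, of which 82.8% to 87.1% lay within 0.1 of a whole fragment.

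Members were found by symbol in both tables. Genes with at least 1 FPKM in at least 3 libraries of a fit were tested (14716 in HuH-7, 14987 in JHH-7, 16731 over both lines) on log2(FPKM + 1) with limma 3.58.1 (trend and robust options, R 4.3.3), with all groups of a line in 1 model and p-values adjusted by the Benjamini-Hochberg method over all genes tested. The fits covered 7 comparisons of a knockout with its control, 4 direct comparisons, 2 differences between the lines and 1 comparison of the controls. The method was checked on simulated data. In the JHH-7 sgKLB comparison, simulated on 14987 genes, 38% of genes changed by 0.5 on the log2 scale were recovered. For changes of 1 and 2 the shares were 94% and 100%, so smaller changes were often missed in the simulation. Only 50 genes were changed at each size, whereas 31.9% of all genes were called in the data, so the rates there may differ. Genes of low control level were not among those changed, so the rates do not cover low members.

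Members are given with values in every library where a change of at least 0.5 passed the test, up to 12 per line by size, and up to 6 per direction in the other comparisons. From the further lists up to 4 genes per direction and line are named. The values of 1 gene that this rule would name are not reported here. The other members named were chosen after their values were seen. The members and all lists were chosen with earlier results of these data known. No library was left out. P-values measure the spread between libraries that the labels call biological replicates. The labels name no sequencing batch or date. Alternatives tried were a pseudocount of 0.1, no filter, TPM scaling, quantile normalization, a replicate block, only the groups compared, no trend or robust option, leaving out each library and, added after seeing the data, a correction for transcript length and GC content. Promoter letters are from RefSeq (GRCh38.p14). Protein sequences were not used here.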

Additional observations from a re-analysis of the deposited data

Results flagged for a closer look

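For the members below, the effect of the same guide differed between the 2 cell lines by a direct test of that difference, as the change in JHH-7 minus the change in HuH-7 on the log2(FPKM + 1) scale (limma, adjusted p under 0.05). For sgKLB, 11 were more positive in JHH-7. CPS1 differed by 2.18, FTCD by 1.65, AGXT by 1.43, AMDHD1 by 1.29, GLDC by 1.13, AMT by 0.71, AFMID by 0.69, ASL by 0.54, HGD by 0.39, GLUD1 by 0.36 and GLUL by 0.33. CPS1, FTCD and AGXT were below the expression limit in HuH-7 and entered this fit through JHH-7. A fall in HuH-7 could hardly be seen for them. For AGXT, at 0.08 FPKM or less in the HuH-7 controls, a rise by the same ratio could hardly be seen either. HuH-7 sgKLB was at 0.97, 0.88 and 0.77 FPKM for CPS1 and at 0.42, 0.38 and 0.73 FPKM for FTCD. The HuH-7 controls were at 0.66, 0.56 and 0.44 FPKM and at 0.84, 0.5 and 0.07 FPKM. Since these 3 genes entered through JHH-7, their differences are given as description only. For HGD, GLUD1 and GLUL the gene rose in both lines, and rose more in JHH-7. The other 7 were more negative in JHH-7. CTH differed by -3.05, ARG2 by -1.58, ASS1 by -1.46, TAT by -1.02, NAGS by -0.86, CBS by -0.61 and BCKDHA by -0.45. TAT was at 0.84, 0.63 and 0.74 FPKM in the HuH-7 controls, so a fall there could hardly be seen. CTH and ASS1 fell in JHH-7 and rose in HuH-7, where both rises were lost when single libraries were left out. The BCKDHA difference was lost without HuH-7 control replicate 1, HuH-7 sgKLB replicate 3, JHH-7 control replicate 2 or JHH-7 sgKLB replicate 3 (adjusted p up to 0.0776). For sgFGFR3/4, ARG2 differed by -0.70. With 3 libraries a group, no test for a single outlying library was made. The cause of these differences was not tested.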

How the results depend on the processing

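No called member changed direction in any alternative. The numbers of members called in JHH-7 sgKLB, JHH-7 sgFGFR1/3/4, both direct JHH-7 comparisons, HuH-7 sgKLB, the line difference for sgKLB and the control comparison stayed within 1.5 times of the main number in every alternative. Of the 27 calls in JHH-7 sgKLB, 22 held in every fit, as did 19 of 24 in sgFGFR1/3/4, 5 of 9 in HuH-7 sgKLB, 2 of 8 in HuH-7 sgFGFR3/4, 1 of 5 in JHH-7 sgFGFR3/4 and 0 of 5 in JHH-7 sgFGFR4. The smaller comparisons moved. For HuH-7 sgFGFR4 (1 member) the number was 2 with a pseudocount of 0.1 and 0 with no filter, quantile normalization, no trend or robust option, the replicate block or only the groups compared. With the length and GC correction it was 1, AHCY in place of CTH. For HuH-7 sgFGFR3/4 (8) it was 4 with no filter, 4 with the replicate block and 2 with only the groups compared. For HuH-7 sgFGFR3/4 against sgFGFR4 (2) it was 1 with no trend or robust option, with the replicate block and with only the groups compared. For JHH-7 sgFGFR4 (5) it was 3 with no filter and 0 with only the groups compared, and for JHH-7 sgFGFR3/4 (5) it was 3, 1 and, with the length and GC correction, 9. For the line difference in sgFGFR3/4 (1) it was 0 with a pseudocount of 0.1, no filter, the replicate block or only the groups compared, and 4 with TPM scaling or the length and GC correction. Leaving out 1 library gave 0 to 2, 3 to 8, 1 to 3, 1 to 6, 2 to 6 and 0 to 2 in these 6 comparisons, in the order given. TPM scaling moved the median of all genes in that line difference from -0.07 to -0.17. The numbers of all genes called moved with them, in HuH-7 sgFGFR4 from 546 to 1 (no filter, replicate block, or only the groups compared), 2 (no trend or robust option) and 96 (quantile), in HuH-7 sgFGFR3/4 from 2371 to 1433 (no filter) and 999 (only the groups compared), in JHH-7 sgFGFR4 from 637 to 337 and 87, in JHH-7 sgFGFR3/4 from 529 to 263, 128 and, with the length and GC correction, 853, and in the sgFGFR3/4 line difference from 1206 to 732 and 409. For HuH-7 sgFGFR3/4 against sgFGFR4 the 238 became 134, 87, 413 with that correction and 119 with the replicate block, and for sgKLB against sgFGFR3/4 the 81 became 20, 8, 145, 9 with the block and 14 with no trend or robust option. The cause of these changes was not tested. Same-numbered libraries did not deviate together (highest correlation 0.0841 in HuH-7 and 0.0534 in JHH-7). Whether they were cultured or prepared together cannot be read from these correlations. The replicate block left 26 members called in JHH-7 sgKLB and 24 in sgFGFR1/3/4. At the estimated depth, levels under 1 FPKM rest on few fragments, and small changes of such members are not detectable.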

Other observations

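The members below the expression limit give values outside the comparisons. OTC was listed at 0.04 FPKM in each of the 3 HuH-7 controls, at 0.51, 0.73 and 0.56 FPKM in sgKLB, at 0.9, 0.08 and 0.59 FPKM in sgFGFR4 and at 0.49, 0.22 and 0.3 FPKM in sgFGFR3/4. Every HuH-7 knockout library exceeded the controls, although none reached 1 FPKM, and 1 sgFGFR4 library was at only 0.08 FPKM. Such values rest on few fragments, and OTC was not tested. The share of all genes with this order of libraries was not computed, so no rise of OTC is claimed. GNMT, which uses up S-adenosylmethionine, was listed at 1.0, 0.96 and 0.22 FPKM in the JHH-7 controls and at 0.17, 0.16 and 0.24 FPKM in sgKLB, which overlap. FTCD, below the limit in HuH-7, was at 2.07, 1.09 and 0.72 FPKM in HuH-7 sgFGFR3/4 beside 0.84, 0.5 and 0.07 FPKM in the controls. UROC1, the second enzyme of histidine breakdown, reached no more than 0.15 FPKM in any library, although HAL and AMDHD1, the enzymes before and after it, were measured in both lines.

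Summed over the 46 members, the level in JHH-7 was 1974.8 to 2100.0 FPKM in the controls, 2420.2 to 2512.4 FPKM in sgKLB and 1808.1 to 1827.8 FPKM in sgFGFR1/3/4, with no overlap between the 3 groups. In HuH-7 it was 1491.4 to 1616.0 FPKM in the controls and 1875.2 to 1940.3 FPKM in sgKLB. GLUD1, GLUL and AHCY, the most abundant members, weigh most in these sums.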
